A study of Mus musculus with 18 samples.

Results

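The arrestins and the G protein-coupled receptor kinases were described here by 10 genes measured in mouse lung. They were taken by symbol from the deposited table of 23356 genes, and all 10 had enough fragments to be tested among 15388 genes. They were the 2 β-arrestins Arrb1 and Arrb2, the 4 receptor kinases Adrbk1, Adrbk2, Grk5 and Grk6, and the 4 α-arrestins Arrdc2, Arrdc3, Arrdc4 and Txnip. Current annotation calls Adrbk1 Grk2 and Adrbk2 Grk3. RNA came from whole lung of male C57BL/6 mice of 3 genotypes, namely wild type, β-arrestin 1 -/- and a line labelled β-arrestin 2 -/-. Each genotype was kept for 4 weeks in normoxia, at a labelled oxygen pressure of about 150 mmHg, or in hypoxia at the pressure of 18000 feet, at about 70 mmHg. The mice entered at 8 to 12 weeks of age, and the samples are labelled 12 to 16 weeks. Each of the 6 groups held 3 libraries, numbered 0, 1 and 2. The labels give neither the allele of either line nor whether a mouse gave 1 library, so the spread behind each p-value is that between libraries, which may be technical.

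When an agonist activates a G protein-coupled receptor, receptor kinases phosphorylate it, and a β-arrestin then binds the phosphorylated receptor. Binding ends coupling to the G protein, brings the receptor to clathrin and AP2 for endocytosis, and links it to other signalling proteins. The α-arrestins share the arrestin fold but mainly recruit ubiquitin ligases of the NEDD4 family to membrane proteins. Txnip, the best known of them, binds thioredoxin and lowers glucose uptake.

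The libraries held 16806806 to 25980876 estimated fragments, with the fewest in β-arrestin 1 -/- hypoxia replicate 2. All 4 measured lung markers were abundant in every group, with group means of 1469 to 1680 FPKM for the surfactant gene Sftpb and 263 to 390 FPKM for the endothelial gene Pecam1. A tissue score averaged the cardiac muscle, airway secretory and adipocyte lists, each as the mean log2 CPM of its genes minus the mean over all libraries. It ran from -2.82 to -1.36 in wild type normoxia, below every library of wild type hypoxia (0.69 to 1.20) and of normoxia labelled β-arrestin 2 -/- (-0.57 to 2.39). The summed level of the 14 cardiac muscle markers was 73.9 to 435 CPM (per library total) in wild type normoxia, 1108 to 1999 in wild type hypoxia and 543 to 7432 in normoxia labelled β-arrestin 2 -/-. The 11 measured airway markers summed to 6370 to 8928, 7943 to 10115 and 8386 to 16353 CPM in the same groups. The 11 adipocyte markers summed to 29.0 to 67.8, 105 to 125 and 76.8 to 418, with Ucp1 and Lep at 0 in all wild type normoxia libraries. In bulk lung, fewer cells of a type and less RNA per cell cannot be told apart.

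Few of the 10 genes passed the test in any comparison. An adjusted p below 0.05 in edgeR's quasi-likelihood test, adjusted by Benjamini-Hochberg over all genes tested, was the threshold throughout. In wild type hypoxia against normoxia 0 of 10 passed, where 4.76% of all genes tested did. Of the 10, 5 had an unadjusted p below 0.05 there, as had 2985 of all 15388 genes, and DESeq2 called 3 of the 10 and 1280 of all genes. In β-arrestin 1 -/- lung hypoxia lowered 1 of 10, Txnip, where 2.95% of all genes were called and 1.11% were lower. In the libraries labelled β-arrestin 2 -/- hypoxia lowered 1 of 10, Arrdc4, where 21.9% of all genes were called and 10.8% were lower.

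Against wild type, β-arrestin 1 -/- lung had 1 of 10 called in normoxia and 1 of 10 in hypoxia, each time the targeted gene Arrb1 and lower. Of all genes 0.221% and 0.201% were called, and 0.143% and 0.117% were lower. The libraries labelled β-arrestin 2 -/- had 2 of 10 called in normoxia, Arrb1 and Grk5, both lower, where 9.49% of all genes were called and 5.49% were lower. In hypoxia 0 of 10 were called in them, with 1 at an unadjusted p below 0.05 and 0 by DESeq2, where 0.923% of all genes were called, 1802 had an unadjusted p below 0.05 and DESeq2 called 481. The hypoxia response differed between β-arrestin 1 -/- and wild type in 0 of 10, with 0 at an unadjusted p below 0.05 and 0 by DESeq2. That contrast called 0 of 15388 genes, with 898 at an unadjusted p below 0.05 and 9 by DESeq2. Between the libraries labelled β-arrestin 2 -/- and wild type it differed in 1 of 10, Arrb1, which was higher, where 6.05% of all genes were called and 3.49% were higher.

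Values of the 3 libraries of each group did not overlap for 4, 5 and 4 of the 10 genes in hypoxia against normoxia of wild type, the β-arrestin 1 -/- line and the other line, in that order. Among all genes tested 24.7%, 21.2% and 47.9% did not overlap in these comparisons. Against wild type, 1 of 10 in normoxia and 4 of 10 in hypoxia did not overlap for β-arrestin 1 -/-, beside 22.6% and 9.79% of all genes. For the libraries labelled β-arrestin 2 -/- these counts were 4 and 2 of 10, beside 44.1% and 17.5%.

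**Figure D1:**
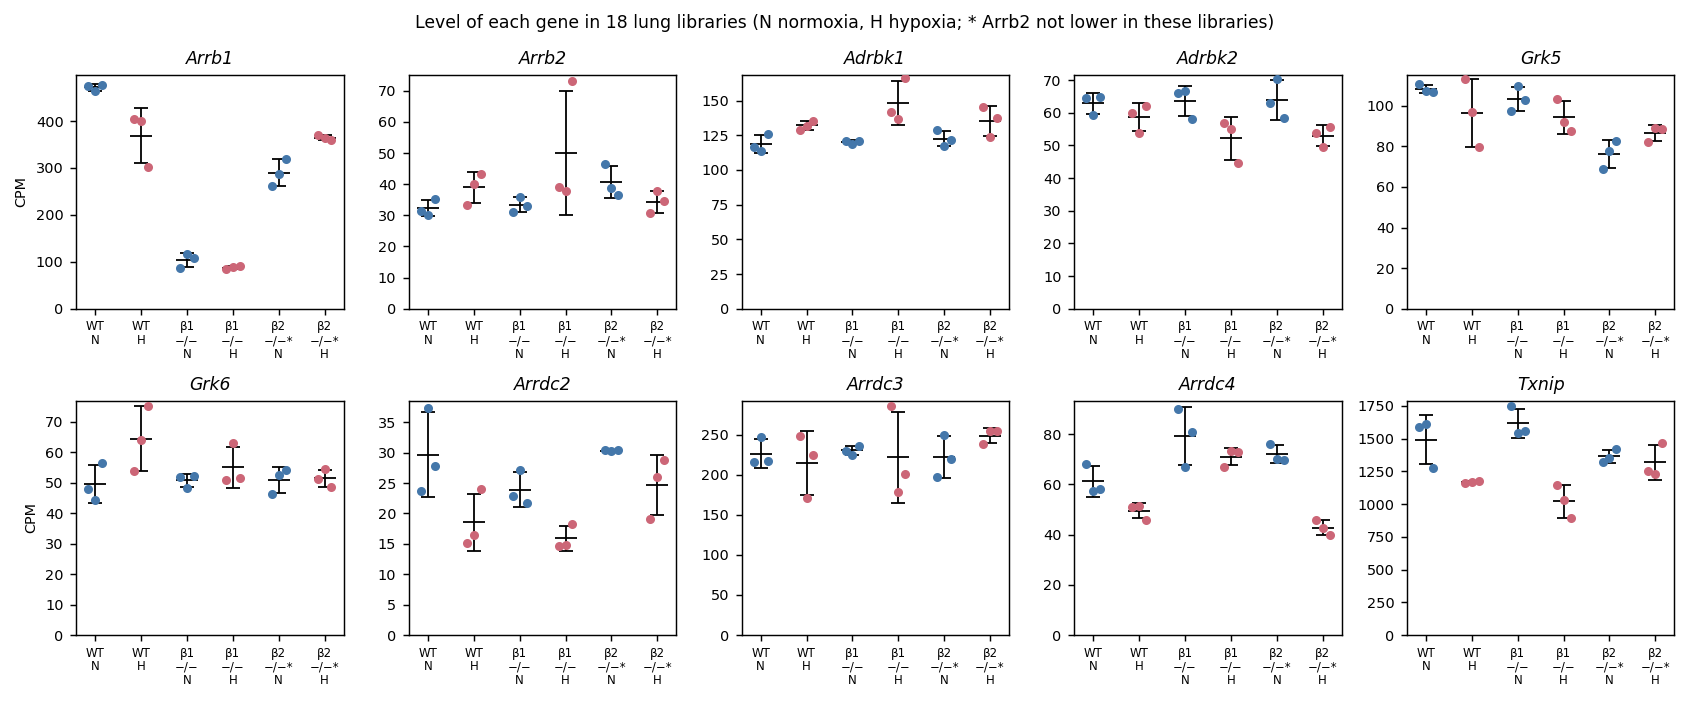
Level of each of the 10 genes in CPM (scaled counts, y axis from 0) in the 18 libraries, by genotype (β1 -/- and β2 -/- on the x axis) and exposure (N normoxia in blue, H hypoxia in red); points are libraries and bars the mean and SD of 3. Arrb1 was lowest in the 6 β-arrestin 1 -/- libraries, between 83.7 and 118 CPM, while Arrb2 in the 6 libraries labelled β-arrestin 2 -/- ran from 30.7 to 46.5 CPM.

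Arrb1, on chromosome 7 from 99535486 to 99606771 (mm10), encodes β-arrestin 1, the adaptor deleted in the β-arrestin 1 -/- line. In wild type normoxia it stood at 474, 464 and 478 CPM in replicates 0, 1 and 2. The β-arrestin 1 -/- line held 87.5, 118 and 107 CPM in normoxia, and in hypoxia 83.7, 88.8 and 90.7 CPM. Each of these 6 libraries was below each of the other 12, but all still held Arrb1 fragments, at 22.1% of wild type in normoxia and 23.8% in hypoxia. The log2 change was -2.18 ± 0.12 (SE, adjusted p = 4.01e-08, edgeR) in normoxia and -2.07 ± 0.12 (adjusted p = 8.28e-08) in hypoxia. A total over the gene does not show which exons the remaining fragments came from.

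Arrb1 was also lower in the normoxia libraries labelled β-arrestin 2 -/-. They stood at 262, 287 and 319 CPM, all below the 3 wild type normoxia libraries. The log2 change was -0.71 ± 0.12 (edgeR adjusted p = 0.00435), which is 61.3% of wild type, and the authors' deposited table gave a q of 0.00124 for the same pair. In hypoxia the same line stood at 370, 364 and 359 CPM beside 405, 400 and 302 CPM in wild type, with a log2 change of -0.02 ± 0.12 (edgeR adjusted p = 0.986). The groups overlapped, and the 95% interval of that change ran from -0.27 to 0.23. With the tissue score as a covariate the normoxia change was -0.56 (edgeR adjusted p = 0.252), and the part of tissue make-up in it was not tested further.

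The response of Arrb1 to hypoxia was then compared between genotypes. The log2 change was -0.36 ± 0.12 in wild type (edgeR adjusted p = 0.102), -0.25 ± 0.12 in β-arrestin 1 -/- (adjusted p = 0.288) and 0.33 ± 0.12 in the libraries labelled β-arrestin 2 -/- (adjusted p = 0.0547). In the authors' deposited table the q were 0.143, 0.354 and 0.154, in the same order. None of the 3 passed alone. The difference between the last and wild type did, at 0.69 ± 0.17 on the log2 scale (edgeR adjusted p = 0.0276). It missed the threshold with the tissue score as a covariate (0.56, adjusted p = 0.183) and in 7 of 12 fits without 1 library (adjusted p of 0.0502 to 0.0646). Both this contrast and the normoxia comparison use the same 3 normoxia libraries of each line.

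Arrb2, on chromosome 11 from 70432580 to 70440828, encodes β-arrestin 2, the other widely expressed β-arrestin. It was not called lower at either exposure in the libraries that carry its knockout label. Wild type normoxia held 31.5, 30.2 and 35.1 CPM, and normoxia labelled β-arrestin 2 -/- held 46.5, 38.9 and 36.6 CPM, all higher. The log2 change was 0.33 ± 0.20 (edgeR adjusted p = 0.256). In hypoxia these libraries held 30.7, 37.8 and 34.6 CPM and wild type 33.5, 40.2 and 43.3 CPM, which overlapped (log2 change -0.18 ± 0.20, edgeR adjusted p = 0.821). The 95% intervals ran from -0.09 to 0.75 and from -0.60 to 0.24, so a change of the size of that in Arrb1 lay outside both. Fragments over the whole gene cannot show whether an exon is missing, and the label is kept below as a label only.

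Arrb2 of the β-arrestin 1 -/- line stood at 31.1, 35.9 and 33.1 CPM in normoxia and at 39.2, 37.8 and 73.1 CPM in hypoxia. The highest of these was replicate 2 of hypoxia, the library with the lowest total. Against wild type the log2 change was 0.05 ± 0.20 (edgeR adjusted p = 0.994) in normoxia and 0.36 ± 0.20 (adjusted p = 0.495) in hypoxia. Without that library the change in hypoxia was -0.01. Hypoxia against normoxia gave 0.27 ± 0.20 in wild type (edgeR adjusted p = 0.511), 0.58 ± 0.20 in β-arrestin 1 -/- (adjusted p = 0.137) and -0.24 ± 0.20 in the libraries labelled β-arrestin 2 -/- (adjusted p = 0.39). In the authors' deposited table the β-arrestin 1 -/- pair had a q of 0.0246. The hypoxia response of Arrb2 differed from that of wild type by 0.31 ± 0.28 in β-arrestin 1 -/- (edgeR adjusted p = 0.844) and by -0.51 ± 0.28 in the libraries labelled β-arrestin 2 -/- (adjusted p = 0.25). For Arrb1 the first of these differences was 0.11 ± 0.17 (edgeR adjusted p = 0.922).

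Per length of transcript, Arrb1 was the main β-arrestin of wild type lung. Arrb2 made up 22.1% ± 1.59 (SD, n = 3) of their summed FPKM in wild type normoxia and 31.2% ± 4.72 in wild type hypoxia. The balance was the other way in β-arrestin 1 -/- lung, with Arrb2 at 57.6% ± 2.24 in normoxia and 69.1% ± 6.05 in hypoxia. The summed FPKM was 77.8 ± 2.63 in wild type normoxia and 31.5 ± 3.04 in β-arrestin 1 -/- normoxia, so the remaining pair stood below wild type while Arrb2 itself was not called higher. In the libraries labelled β-arrestin 2 -/- the share of Arrb2 was 35.6% ± 5.02 in normoxia and 28.7% ± 1.87 in hypoxia. The 2 visual arrestins Sag and Arr3, which act in photoreceptors, had at most 21 fragments in any group of 3 libraries and were not tested.

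**Figure D2:**
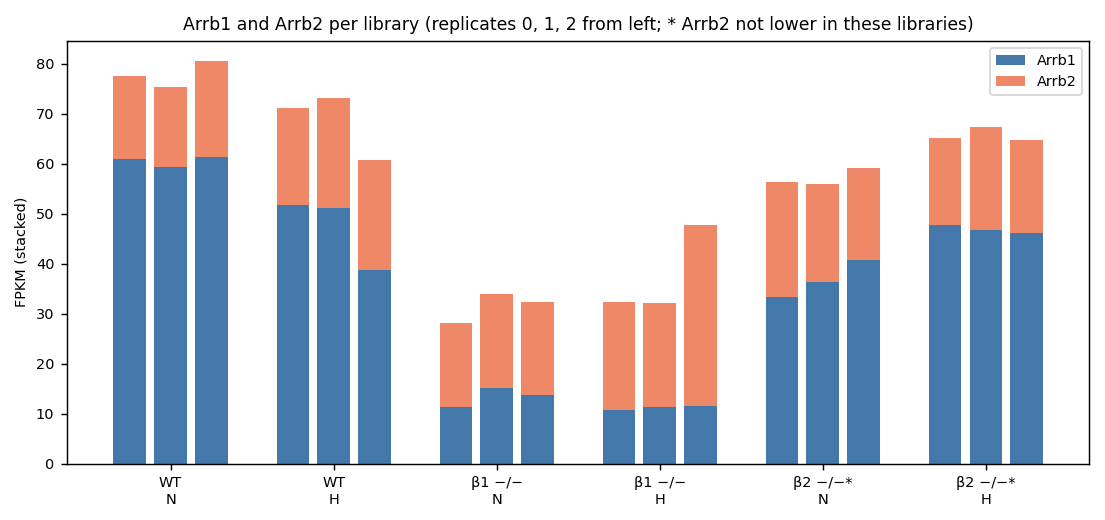
FPKM of Arrb1 (blue) and Arrb2 (orange) stacked for each of the 18 libraries (y axis, from 0), in groups of 3 along the x axis with replicates 0, 1 and 2 from left. Arrb1 is the larger part in wild type and in the libraries labelled β-arrestin 2 -/-, and Arrb2 the larger part in all 6 β-arrestin 1 -/- libraries.

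The receptor kinases came next in the order of receptor shut-off. Adrbk1, on chromosome 19 from 4286001 to 4305955, encodes a kinase that Gβγ subunits bring to the membrane, and had the largest share of the summed FPKM of the 4, with group means of 38.1% to 45.2%. Grk5, on chromosome 19 from 60889749 to 61092555, which stays at the membrane through lipid binding, made up 27.0% to 35.0%. Grk6, on chromosome 13 from 55445334 to 55460927, a palmitoylated relative of Grk5, made up 17.3% to 21.4%. Adrbk2, on chromosome 5 from 112910478 to 113015514, the closest relative of Adrbk1, made up 7.56% to 10.6%. This order of group means held in each of the 6 groups. Of kinases outside the 10, Grk4, known from testis, had group means of 1.36 to 2.01 FPKM, and Grk1, the rhodopsin kinase, had at most 4 fragments in any group.

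Grk5 was the one kinase called in any comparison. Wild type normoxia held 111, 107 and 107 CPM, and normoxia labelled β-arrestin 2 -/- held 68.8, 77.6 and 82.6 CPM. The groups did not overlap, and the log2 change was -0.50 ± 0.11 (edgeR adjusted p = 0.0142), or 70.6% of wild type. The authors' deposited table gave a q of 0.0120 for the same pair. The call was lost without normoxia replicate 0 of the line labelled β-arrestin 2 -/- (-0.44, edgeR adjusted p = 0.0716) and with the tissue score as a covariate (-0.34, adjusted p = 0.435). The 18 endothelial markers summed to 11354 to 12616 CPM in wild type normoxia and 8846 to 10623 in normoxia labelled β-arrestin 2 -/-, with none at 0. In wild type hypoxia they summed to 8990 to 10853 CPM, and Grk5 was not called there against wild type normoxia (-0.165 ± 0.109, edgeR adjusted p = 0.449). The part of these markers in the result was not tested.

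In hypoxia Grk5 stood at 113, 96.9 and 79.7 CPM in wild type and at 82.2, 89.1 and 88.6 CPM in the line labelled β-arrestin 2 -/-, which overlapped. The β-arrestin 1 -/- line held 97.4, 110 and 103 CPM in normoxia and 103, 91.9 and 87.5 CPM in hypoxia, overlapping wild type at both exposures. Neither of these 2 lines was called against wild type in hypoxia, at edgeR adjusted p of 0.663 and 0.923. Hypoxia itself called Grk5 in no genotype.

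Adrbk1 was the steadiest of the 10 between replicates. Its within-group SD was 0.09 on the log2 CPM scale, and 93.7% of all genes tested had a larger one. It stood at 117, 113 and 126 CPM in wild type normoxia and at 129, 132 and 135 CPM in wild type hypoxia. Libraries of β-arrestin 1 -/- stood at 121, 119 and 121 CPM in normoxia and at 142, 137 and 166 CPM in hypoxia. Neither pair overlapped, with hypoxia higher in both, but neither passed the test (edgeR adjusted p of 0.322 and 0.0608). DESeq2 called it in β-arrestin 1 -/-, at an adjusted p of 0.012, and was among the 3 of 16 alternative settings that did. The authors' deposited table gave a q of 0.254 for that pair and of 0.690 for wild type. The line labelled β-arrestin 2 -/- held 129, 118 and 122 CPM in normoxia and 145, 124 and 137 CPM in hypoxia, and these overlapped.

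Adrbk2 and Grk6 were called in no comparison. Adrbk2 ranged from 58.2 to 70.4 CPM in the 9 normoxia libraries and from 44.7 to 62.2 CPM in the 9 hypoxia libraries. Its mean was lower in hypoxia in every genotype, without overlap in β-arrestin 1 -/- (edgeR adjusted p = 0.155) and in the line labelled β-arrestin 2 -/- (adjusted p = 0.0689). Grk6 ranged from 44.5 to 56.5 CPM in the 9 normoxia libraries and from 48.6 to 75.3 CPM in hypoxia. Its highest group mean was that of wild type hypoxia, with 54.0, 63.9 and 75.3 CPM, beside 48.1, 44.5 and 56.5 CPM in wild type normoxia. These overlapped, and the test was not passed (edgeR adjusted p = 0.0994). Without wild type hypoxia replicate 0 the edgeR adjusted p was 0.0322. Only that 1 of 16 alternative settings called Grk6 here, and the authors' deposited table gave a q of 0.127.

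**Figure D3:**
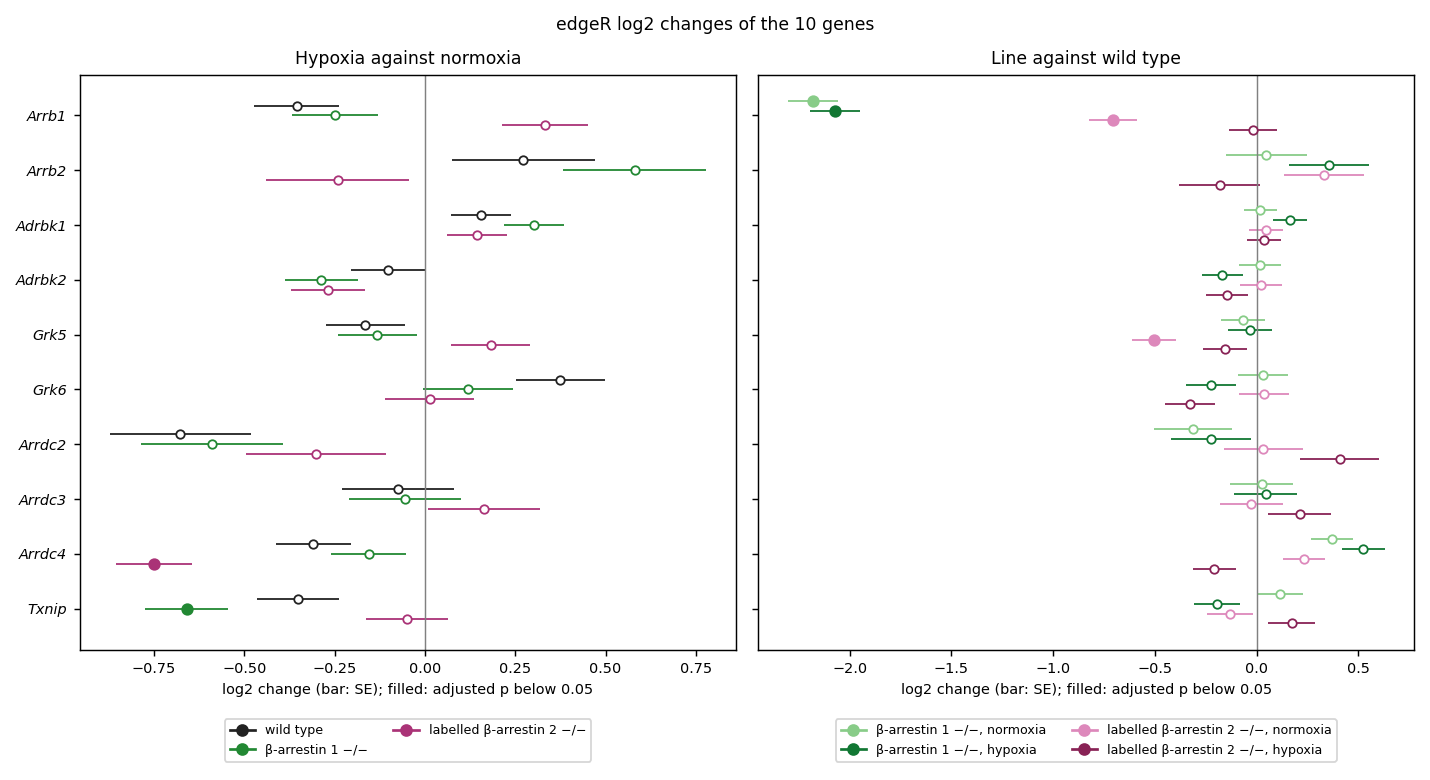
Log2 change of each of the 10 genes from edgeR (x axis, bars are SE) for hypoxia against normoxia in each genotype (left) and for each line against wild type (right); filled points have an adjusted p below 0.05. Filled points are Txnip in β-arrestin 1 -/- and Arrdc4 in the line labelled β-arrestin 2 -/- on the left, and Arrb1 in 3 comparisons and Grk5 in 1 on the right.

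Among the α-arrestins Txnip and Arrdc4 were called with hypoxia, each in 1 genotype. Both genes are known targets of the glucose-sensing Mondo factors ChREBP and MondoA, which bind pairs of E-box-like motifs. Their promoters are printed for that reason, chosen after their values were seen, from RefSeq windows of 250 bases before to 50 after the gene start on GRCm38.p6. The Txnip window is chr3:96557707-96558006 on the plus strand, and the capitals mark a match to the paired motif, CACGNG given 2 times with 5 bases between.
Txnip: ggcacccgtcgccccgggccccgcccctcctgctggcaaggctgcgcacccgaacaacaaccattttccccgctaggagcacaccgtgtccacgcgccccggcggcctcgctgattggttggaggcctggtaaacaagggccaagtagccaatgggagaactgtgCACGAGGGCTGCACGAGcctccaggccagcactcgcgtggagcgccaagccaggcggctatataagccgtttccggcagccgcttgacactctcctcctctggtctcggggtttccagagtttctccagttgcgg
The Arrdc4 window is chr7:68749189-68749488 on the minus strand, and the capitals mark the E-box CACGTG.
Arrdc4: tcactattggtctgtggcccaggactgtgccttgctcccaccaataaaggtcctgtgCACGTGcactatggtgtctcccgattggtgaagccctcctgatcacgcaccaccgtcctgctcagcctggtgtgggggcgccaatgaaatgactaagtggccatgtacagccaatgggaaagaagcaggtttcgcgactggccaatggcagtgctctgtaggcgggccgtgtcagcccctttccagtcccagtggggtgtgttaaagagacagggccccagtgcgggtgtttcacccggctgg
The paired motif, searched on both strands, was found in 16 of 32851 promoter windows of this length (0.049%), and CACGTG in 7.15%. Counted from the gene start, the match began at position -85 in Txnip and at -193 in Arrdc4. Windows were available for 6 of the 10 genes, and of these only Txnip held the paired motif and only Arrdc4 held CACGTG. The shorter motif ACGTG, which lies within CACGTG and is the core of the hypoxia response element, was in 19.6% of all windows and in windows of Grk6, Arrdc3 and Arrdc4. The glucocorticoid receptor motif, AGAACA and TGTTCT with 3 bases between them, was in 0.009% of all windows and in none of these 6 genes, and the window of Grk5 held none of the 4 motifs. A match is only a description of the letters in these windows.

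Txnip, on chromosome 3 and placed by RefSeq from 96557957 to 96561857, was the most abundant of the 10 and made up 82.4% to 87.1% of the summed FPKM of the 4 α-arrestins. The β-arrestin 1 -/- libraries stood at 1746, 1545 and 1557 CPM in normoxia and at 1146, 1029 and 894 CPM in hypoxia. The groups did not overlap, and Txnip fell by 0.66 ± 0.11 on the log2 scale (edgeR adjusted p = 0.00669), to 63.3% of normoxia. The authors' deposited table gave a q of 0.00410. When only these 6 libraries were fitted the change was -0.67 and the edgeR adjusted p 0.112.

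In wild type Txnip stood at 1586, 1614 and 1276 CPM in normoxia and at 1163, 1170 and 1177 CPM in hypoxia. These did not overlap, with a log2 change of -0.35 ± 0.11 that did not pass (edgeR adjusted p = 0.0947). Without wild type normoxia replicate 2, the low one, the edgeR adjusted p was 0.0437. Txnip was called here in 3 of 16 alternative settings, and the authors' deposited table gave a q of 0.262. In the line labelled β-arrestin 2 -/- it stood at 1325, 1350 and 1418 CPM in normoxia and at 1253, 1232 and 1469 CPM in hypoxia, which overlapped (log2 change -0.05 ± 0.11, edgeR adjusted p = 0.784). The hypoxia response of neither line was called different from that of wild type, at -0.31 ± 0.16 (edgeR adjusted p = 0.807) in β-arrestin 1 -/- and 0.30 ± 0.16 (adjusted p = 0.242) in the other. The exons of Txnip overlap those of the antisense gene Gm15441, which had 18.1 to 50.6 fragments in a library. The kit does not mark strand, so fragments in the shared stretch cannot be assigned to one of them.

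Arrdc4, on chromosome 7 from 68736994 to 68749238, encodes an α-arrestin that, like Txnip, is known to respond to glucose. In the line labelled β-arrestin 2 -/- it stood at 76.1, 70.0 and 69.8 CPM in normoxia and at 46.0, 42.5 and 39.9 CPM in hypoxia. The groups lay far apart, and Arrdc4 fell by 0.75 ± 0.11 on the log2 scale (edgeR adjusted p = 0.000349), to 59.4% of normoxia. It was called in all 16 alternative settings, at adjusted p of 9.17e-09 to 0.00289, and the authors' deposited table gave a q of 0.00124. Wild type went from 68.3, 57.3 and 58.2 CPM to 50.9, 51.4 and 46.0 CPM, without overlap, but was not called (-0.31 ± 0.10, edgeR adjusted p = 0.106). Its values in β-arrestin 1 -/- were 89.9, 66.9 and 80.7 CPM in normoxia and 67.1, 73.4 and 72.8 CPM in hypoxia, which overlapped (-0.16 ± 0.10, edgeR adjusted p = 0.44).

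The difference between the line labelled β-arrestin 2 -/- and wild type in the hypoxia response of Arrdc4 was -0.44 ± 0.15 and not called (edgeR adjusted p = 0.0807). The 3 β-arrestin 1 -/- hypoxia libraries were all above the 3 of wild type, with a log2 change of 0.52 ± 0.11 (edgeR adjusted p = 0.0613). DESeq2 called that change at an adjusted p of 0.00143, and the authors' deposited table gave a q of 0.0330. Of 16 alternative settings 2 called it, DESeq2 among them.

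Arrdc2 and Arrdc3 were called in no comparison. Arrdc2, on chromosome 8 from 70835138 to 70839720, stood at 23.8, 37.3 and 27.9 CPM in wild type normoxia and at 15.2, 16.4 and 24.0 CPM in hypoxia. These overlapped by 1 library (log2 change -0.68 ± 0.20, edgeR adjusted p = 0.057), and without wild type hypoxia replicate 2 the change was -0.92 (adjusted p = 0.0245). DESeq2 called it at an adjusted p of 0.0139, and the authors' deposited table gave a q of 0.00124. Of 16 alternative settings 4 called it, DESeq2 among them. The β-arrestin 1 -/- libraries held 22.9, 27.1 and 21.6 CPM and, in hypoxia, 14.6, 14.9 and 18.2 CPM, without overlap (edgeR adjusted p = 0.128), and the authors' deposited table gave a q of 0.0120 for this pair. In the line labelled β-arrestin 2 -/- it stood at 30.4, 30.2 and 30.4 CPM and, in hypoxia, between 19.2 and 28.7 CPM, also without overlap (edgeR adjusted p = 0.268).

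Arrdc3, on chromosome 13 from 80883422 to 80896043, encodes an α-arrestin known to act on β-adrenergic receptors and in energy balance. It was spread from 171 to 286 CPM over the 18 libraries, both ends being hypoxia libraries. Its group means, 215 to 249 CPM, differed by 0.23 on the log2 scale at most, and 88.6% of all genes tested had a wider range. The within-group SD was 0.20. Of the α-arrestins outside the 10, Arrdc1 fell with hypoxia in the line labelled β-arrestin 2 -/- by 0.56 ± 0.13 on the log2 scale (edgeR adjusted p = 0.00698). Arrdc5 had at most 4 fragments in any group and was not tested.

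Genes that act with the arrestins were read from 6 lists. In wild type hypoxia 0 of 20 clathrin and AP2 genes and 0 of 12 ubiquitin ligase and deubiquitinase genes were called, where 4.76% of all genes were. In the line labelled β-arrestin 2 -/- hypoxia raised 3 of the 20, namely Ap2a1, an AP2 subunit (0.35 ± 0.07 on the log2 scale), Epn2, an endocytic adaptor (0.45 ± 0.10), and Dnm2, the dynamin that cuts vesicles off (0.36 ± 0.08), with edgeR adjusted p of 0.00396 to 0.00716. The median of the list was 0.05 beside -0.04 for all genes tested, of which 21.9% were called in either direction. Of the 12 ubiquitin genes Smurf2 (0.58 ± 0.17) and Smurf1 (0.34 ± 0.11) rose and Wwp2 (-0.41 ± 0.09) fell, all ligases of the NEDD4 family, at edgeR adjusted p of 0.00483 to 0.0453. In normoxia against wild type the same line was lower in Epn2 (-0.42 ± 0.10), Nedd4l (-0.64 ± 0.12) and Smurf2 (-0.65 ± 0.17), at edgeR adjusted p of 0.00777 to 0.0307. These were 1 of the 20 clathrin and AP2 genes and 2 of the 12 ubiquitin genes, where 5.49% of all genes were lower. The 14 kinase and phosphodiesterase scaffold partners gave 0 calls in each of the 9 contrasts, where 0% to 21.9% of all genes were called. In the line labelled β-arrestin 2 -/- hypoxia lowered 5 of 13 tested G protein β and γ genes, among them Gnb5 (-0.73 ± 0.10, edgeR adjusted p = 0.000294) and Gng10 (-0.79 ± 0.13, adjusted p = 0.000925), where 10.8% of all genes were lower. Against wild type in normoxia this line was higher in Gnb5 (0.40 ± 0.10, edgeR adjusted p = 0.0236). On the same list hypoxia lowered Gng2 in wild type (-0.80 ± 0.14, edgeR adjusted p = 0.00516), and in β-arrestin 1 -/- it lowered Gnb5 (-0.47 ± 0.10, adjusted p = 0.017) and raised Gng11 (0.92 ± 0.21, adjusted p = 0.0303). No other of the 13 was called in the labelled line against wild type in normoxia, or with hypoxia in wild type and β-arrestin 1 -/-. Of all genes 9.49%, 4.76% and 2.95% were called there, in that order.

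The 2 lists nearest to Txnip and Arrdc4 were those of thioredoxin and Mondo factor genes and of genes that respond to glucocorticoids and fasting. Mlxip, which encodes MondoA, fell with hypoxia by 0.54 ± 0.14 on the log2 scale in wild type (edgeR adjusted p = 0.0325) and by 0.65 ± 0.14 in β-arrestin 1 -/- (adjusted p = 0.0178), and the glucose transporter gene Slc2a1 rose by 0.53 ± 0.15 in wild type (adjusted p = 0.0478). No other of the 10 listed genes was called in these comparisons, where 4.76% of all genes were called in wild type and 2.95% in β-arrestin 1 -/-. In the line labelled β-arrestin 2 -/- 1 of the 10 listed genes was called with hypoxia, where 21.9% of all genes were called and 10.8% were lower. It was the mitochondrial thioredoxin gene Txn2, which fell by 0.53 ± 0.12 (edgeR adjusted p = 0.00649), from a mean of 130 to 89.7 CPM. In normoxia this line was higher than wild type in Txn2 (0.53 ± 0.12, edgeR adjusted p = 0.0166), which had a mean of 89.8 CPM in wild type, and in the glucose transporter gene Slc2a4 (2.39 ± 0.62, adjusted p = 0.0281). In that comparison 5 of 14 cardiac muscle and 1 of 10 tested adipocyte genes were also called, all higher, where 9.49% of all genes were called. The part of tissue make-up in the Slc2a4 change was not tested. Of the 20 glucocorticoid and fasting genes 1 rose and 3 fell in wild type hypoxia, with a median log2 change of -0.42 beside 0.0023 for all genes tested. In β-arrestin 1 -/- 2 rose and 5 fell, with a median of -0.78 beside 0.02. Of the 20, 5 rose and 1 fell in the line labelled β-arrestin 2 -/-, with a median of 0.17 beside -0.04. Of all genes 4.76%, 2.95% and 21.9% were called in these 3 comparisons, in the same order. Cpt1a, of fatty acid oxidation, fell by 0.97 ± 0.12 in wild type and by 0.73 ± 0.12 in β-arrestin 1 -/-, at edgeR adjusted p of 0.000449 and 0.00597. Sgk1, on the same list, rose with hypoxia in every genotype. Its log2 change was 0.82 ± 0.14 in wild type, 1.34 ± 0.14 in β-arrestin 1 -/- and 0.83 ± 0.14 in the labelled line. The edgeR adjusted p were 0.00442, 0.000192 and 0.00136, in that order. Against wild type in normoxia the line labelled β-arrestin 2 -/- was lower in 4 of the 20, where 5.49% of all genes were lower. Among them were Cpt1a (-1.04 ± 0.12, edgeR adjusted p = 0.000313) and the glucocorticoid target Zbtb16 (-3.40 ± 0.68, adjusted p = 0.00991). Hypoxia lowered Zbtb16 in β-arrestin 1 -/- (-2.59 ± 0.65, edgeR adjusted p = 0.0431) and raised it in the line labelled β-arrestin 2 -/- (2.67 ± 0.66, adjusted p = 0.011). Against wild type in hypoxia this line had 0 calls on the 6 lists, where 0.923% of all genes were called. The list summed to 3532 to 4708 CPM in wild type normoxia and 2356 to 4996 CPM in wild type hypoxia, which overlapped. In β-arrestin 1 -/- it summed to 3361 to 4146 CPM in normoxia and 2664 to 3525 CPM in hypoxia, also with overlap. In the line labelled β-arrestin 2 -/- these sums were 3802 to 3900 and 4197 to 5181 CPM, without overlap. None of its genes was at 0 in all libraries of a group. Whether food intake or stress hormones moved with Txnip was not tested. Against wild type, β-arrestin 1 -/- lung had 0 calls on each of these 6 lists at either exposure, where 0.221% and 0.201% of all genes were called.

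Across the 18 libraries, Pearson coefficients of log2 CPM between pairs of the 10 genes ran from -0.80 (Adrbk1 with Txnip) to 0.67 (Arrb2 with Adrbk1). The points share library, genotype and exposure, so these are descriptions only. The gene most like Arrb1 was Trim30d, with a coefficient of 0.963, followed by Trim12a with 0.955. Both lie on the same chromosome, 4.86 and 4.69 Mb away from Arrb1. Txnip was most like Cttnbp2nl (0.90) and Dll1 (0.89), Arrdc4 most like Spon2 (0.89) and Pdia6 (0.88), and Grk5 most like D3Ertd254e (0.91) and Tspan9 (0.89). Arrdc2 was most like Ip6k2 (0.94). Arrb2 was most like N6amt2 (0.95) and Il11ra1 (0.95), Adrbk1 like Serpine2 (0.92) and Klk8 (0.90), and Adrbk2 like Plagl2 (0.89) and Tsr1 (0.89). Grk6 with Pdgfa (0.85) and Mcm2 (0.84), and Arrdc3 with Tmc7 (0.78) and Fbxo33 (0.76), had the lowest such coefficients of the 10.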

How the data were processed

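Poly(A)-selected RNA of frozen lung was sequenced from 18 libraries, and the kit, per the labels' protocols, keeps no strand. FastQC, TopHat and Cuffdiff are the tools and mm10 the build named by the submitters' processing notes, which as used here state neither versions nor the annotation. The authors deposited, for every gene in every library, estimated counts of fragments without normalization (93.3% of values whole) and FPKM values. The p-values and q-values of Cuffdiff were copied from the authors' deposited table. Of 23356 features 5 with the status HIDATA were left out and 20 with FAIL kept.

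Counts were rounded, scaled by TMM and filtered by filterByExpr in edgeR 4.0.16 (R 4.3.3), with 1 fit of all 18 libraries in 6 groups, quasi-likelihood F-tests and Benjamini-Hochberg adjustment over 15388 genes, with a threshold of 0.05. CPM values are TMM-scaled, save the sums of marker lists, which are scaled to the library total alone. Errors of log2 changes are SE, those of levels are SD over 3 libraries. The contrasts set hypoxia against normoxia within a genotype, a line against wild type within an exposure, and the hypoxia response of a line against that of wild type. Comparisons of both lines with wild type share its libraries, and the contrasts of 1 group share that group.

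The members, the lists and the tests were chosen with earlier results of these data known. By rule all 10 genes are described in CPM, log2 changes are given for called genes and for Arrb1 and Arrb2 in every contrast, with others added after their values were seen, along with up to 4 called genes of a list and the 2 genes most like each member (Pearson, prior count 2). One of these genes is not reported here. Alternatives were no filter, DESeq2 1.42.0, edgeR with its size factors, limma 3.58.1 on log2(FPKM + 1) with a minimum of 1 FPKM in 3 libraries or none and on log2(FPKM + 0.1), the replicate number as a block, only the groups compared, the tissue score as a covariate and each library left out. A fit without the 2 libraries of lowest total was chosen after seeing the data. The edgeR test was also run on simulated counts, and the outcome is not given here. Deposited starts were raised by 1 to count from 1, and for Txnip the deposited span also takes in Gm15441, so the RefSeq span is given. Promoters are from RefSeq; sequences of the proteins are not used here. Figures were drawn with matplotlib 3.10.9.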

Additional observations from a re-analysis of the deposited data

Results flagged for a closer look

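The hypoxia response of Arrb1 differed between the libraries labelled β-arrestin 2 -/- and wild type, by 0.69 ± 0.17 on the log2 scale (SE, edgeR adjusted p = 0.0276). In the labelled line all 3 hypoxia libraries were above all 3 normoxia libraries, and in wild type all 3 were below. The test of the difference itself put this result here. The tissue score stood apart between wild type normoxia and hypoxia (-2.82 to -1.36 and 0.69 to 1.20), and with it as a covariate the difference was 0.56 (edgeR adjusted p = 0.183).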

How the results depend on the processing

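The calls of Arrb1 in β-arrestin 1 -/- against wild type and of Arrdc4 with hypoxia in the line labelled β-arrestin 2 -/- kept their direction and their side of the threshold in every alternative run; the other 4 calls lost it in at least 1, as given above. The cause was not tested. Contrasts are taken in the order hypoxia in wild type, β-arrestin 1 -/- and the line labelled β-arrestin 2 -/-; each line against wild type in normoxia and hypoxia (β-arrestin 1 -/- first); and the differences of hypoxia responses. DESeq2 called 1280, 841, 176, 154, 2754, 481, 9 and 1873 genes in all but the third, where 4116 stayed within 1.5 times of 3370, in place of 733, 454, 34, 31, 1460, 142, 0 and 931. Only the groups compared gave 47 with hypoxia in β-arrestin 1 -/-, 109 and 12 for β-arrestin 1 -/- against wild type, 2638 and 84 for the line labelled β-arrestin 2 -/-, and 1 and 1540 for the differences. The tissue score gave 43 with hypoxia in wild type, 17 and 20 for β-arrestin 1 -/- against wild type, 28 for the labelled line in normoxia and 8 for its difference. Without the 2 libraries of lowest total the counts were 1455 with hypoxia in wild type, 87 for β-arrestin 1 -/- against wild type in normoxia, 349 for the labelled line in hypoxia and 1491 for its difference. limma on log2(FPKM + 1), with or without the filter, called 1 gene for the difference of β-arrestin 1 -/-. Leaving out 1 library gave 209 to 943, 133 to 491, 1710 to 3107, 15 to 30, 20 to 34, 316 to 1922, 52 to 298, 0 to 0 and 313 to 2022 genes. Of the 10 members, hypoxia in wild type called 3 with DESeq2, 1 with the replicate block, 2 without the 2 libraries and 0 to 1 with 1 library left out. In β-arrestin 1 -/- hypoxia called 2 with DESeq2, 2 with the replicate block, 0 with only these groups, and 1 to 2 with 1 library left out. In the labelled line it called 2 with DESeq2, its size factors, limma on log2(FPKM + 1), only these groups or the tissue score, and 1 to 2 with 1 library left out, the added call being Arrb1. β-Arrestin 1 -/- against wild type in hypoxia called 2 with DESeq2 and with the replicate block. The labelled line against wild type in normoxia called 0 with the tissue score and 1 to 2 with 1 library left out, and its difference called 0 and 0 to 2. Correlations of same-numbered deviations ran from -0.212 to 0.464. Libraries of unlike number were not compared, so whether the replicate numbers pair the libraries was not tested. The replicate block added the calls of Arrdc2, Adrbk1 and Arrdc4 (adjusted p of 0.0415 to 0.0485). Some uncalled changes turned sign. Not all of them were near 0 in the main fit. Arrb2 in β-arrestin 1 -/- against wild type was 0.36 in hypoxia there, and its response difference 0.31. Arrb2 in β-arrestin 1 -/- against wild type ran from -0.0022 to 0.12 in normoxia and from -0.0065 to 0.52 in hypoxia with 1 library left out, and was -0.0068 without the 2 libraries; its response difference ran from -0.054 to 0.47, and was -0.054 without the 2. Arrb1 in the labelled line in hypoxia ran from -0.14 to 0.055, and was 0.0013 and 0.0016 in limma with the larger and smaller pseudocount, 0.0013 with no filter and 0.00049 with the tissue score; its response difference in β-arrestin 1 -/- ran from -0.019 to 0.20, and was -0.082 with the tissue score. Depths of 16806806 to 25980876 fragments limit Sag, Arr3, Arrdc5 and Grk1, which stayed untested.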

Other observations

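The ratio of the estimated fragments of a gene to its FPKM in the same library can shift when fragments are assigned to isoforms of other lengths. It was divided by the gene's geometric mean over libraries and by the library's median gene. For Arrb2 this ratio ran from 0.92 to 1.06 over the 18 libraries, and 1.67% of 10795 genes compared had a wider relative range. The 3 normoxia libraries labelled β-arrestin 2 -/- had 1.063, 1.056 and 1.060, the 3 hypoxia libraries of that line 0.938, 0.980 and 1.001, and the wild type normoxia libraries 1.025, 1.012 and 0.972. In normoxia all 3 labelled libraries were thus above all 3 of wild type. The wild type hypoxia libraries had 0.9247, 0.9748 and 1.044. The β-arrestin 1 -/- libraries had 0.989, 1.021 and 0.954 in normoxia and 0.962, 0.979 and 1.062 in hypoxia. Outside the labelled line the ratio reached 0.9247 and 1.062, the latter in β-arrestin 1 -/- hypoxia replicate 2, the library with the lowest total. For Arrb1 the ratio stayed between 0.999 and 1.001. Which exons of Arrb2 were covered was not tested.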
